A study of Mus musculus with 2 samples.

Results

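The 10 genes described here encode growth arrest proteins and the core of the p53 pathway. They comprise the cyclin-dependent kinase inhibitors Cdkn1a, Cdkn1b, Cdkn2a, Cdkn2b and Cdkn2c, the stress-inducible Gadd45a, Gadd45b and Gadd45g, the transcription factor gene Trp53 and its negative regulator Mdm2. They were chosen by name, as the non-control probes whose gene name on the array equals 1 of these symbols. This gave 14 of the 39429 probes, and naming again through transcript accessions gave none of them another symbol. A probe whose accession had no match kept the array's name, so it was not checked in this way. The second Cdkn1b probe carries an Ensembl accession and not a RefSeq one. Of the 10 genes, 9 were measured, that is, gave a signal well above background with at least 1 probe in both groups, among 15037 such genes in all.

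The samples were gastrocnemius, a calf muscle, from male wild-type C57BL/6 mice aged 9 weeks. In the plaster cast group the hindlimb muscles had been held still and unloaded for 11 days, and the other group is labelled as control. Both groups were pools, with N = 6 for each, read here as RNA of 6 mice, and each pool was hybridised to 1 one-colour Agilent array, so there were 2 arrays and no replicate of either group. No difference below has a replicate check or a test, and the spread between mice is not known. Levels are given per probe as a percentage of the array's 75th percentile of signal, which is 100 on both arrays, and differences as log2 of cast over control. The SD given for a log2 ratio, called spot-level, covers printing and scanning within the arrays alone.

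Cyclin-dependent kinase inhibitors stop a cell from entering DNA replication. The CIP/KIP members, p21 (Cdkn1a) and p27 (Cdkn1b), bind cyclin-kinase complexes, while the INK4 members, p16 (from Cdkn2a), p15 (Cdkn2b) and p18 (Cdkn2c), bind the kinases CDK4 and CDK6. p53 activates Cdkn1a, Gadd45a and Mdm2, and Mdm2 marks p53 for destruction. Muscle fibres have left the cell cycle for good, and in mouse muscle Gadd45a and Cdkn1a are known as genes that denervation, fasting and immobilisation switch on and that promote fibre wasting.

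Cdkn1a and Gadd45a were the members that stood higher on the cast array by at least 2-fold, at 3.86-fold and 2.47-fold. By the brightest measured probe of each gene, no member was at least 2-fold lower, and the largest difference downwards was Cdkn2b, at 1.81-fold. A dimmer Cdkn2b probe, above background in control alone, was at least 2.08-fold lower. The remaining 6 measured members, Cdkn1b, Cdkn2c, Gadd45b, Gadd45g, Trp53 and Mdm2, differed by less than 1.5-fold. The 2 members past 2-fold upwards were 22.2% of the 9 measured, where 336 of 15037 genes, or 2.23%, lay past the same fold. The members were chosen with earlier results of these data known, so the gap between these shares is not independent of the choice. Downwards the count was 0 of 9, beside 315 genes or 2.09% of all. The median log2 ratio of the 9 members was 0.15 and that of all measured genes -0.03, with 7 members above 0 and 2 below.

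**Figure D1:**
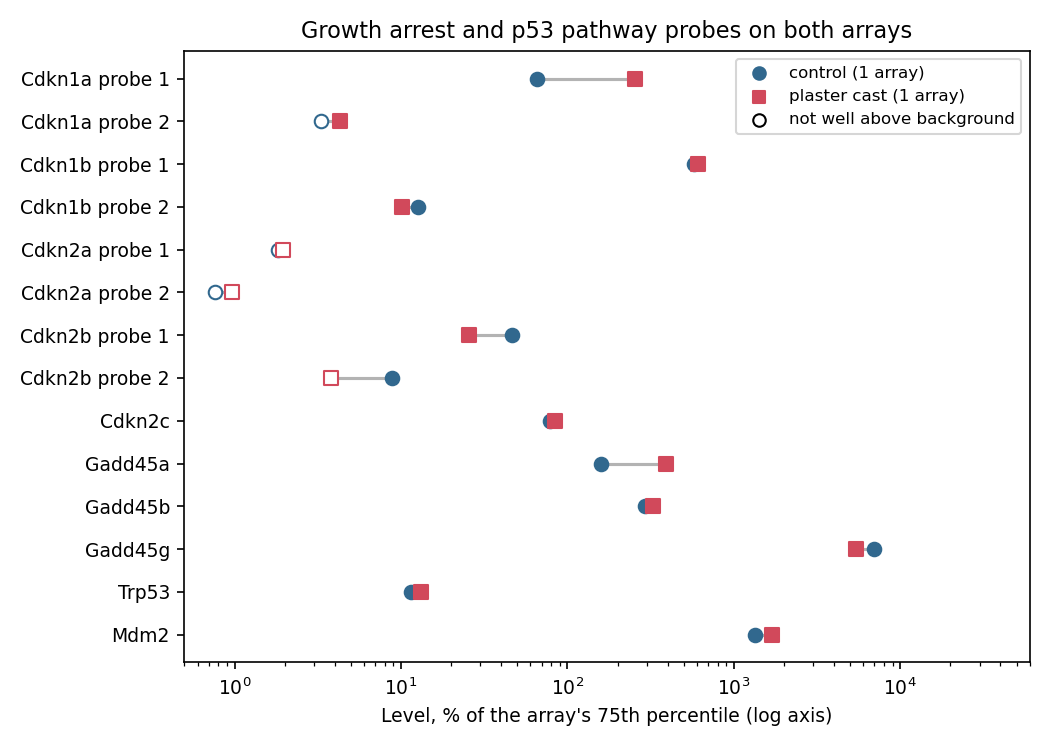
Level of each of the 14 probes on the control array (blue circles) and the plaster cast array (red squares), as a percentage of the array's 75th percentile on a log axis, with open symbols for probes not well above background. The pairs lie far apart for Cdkn1a probe 1 (66.0 and 255) and Gadd45a (159 and 392), and both Cdkn2a probes are open on both arrays.

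The main probe of Cdkn1a matches both annotated transcript variants, and it was printed 10 times on each array. Its spots ranged from 62.1 to 70.4 on the control array, with a median of 66.1. On the cast array they ranged from 245 to 269, with a median of 256. The spots of the arrays did not overlap, and the lowest cast spot was 3.48-fold above the highest control spot. The mean spot level was 66.1 ± 2.29 (SD over 10 spots of 1 array) in control and 255 ± 8.19 in cast, a coefficient of variation of 3.47% and 3.21%. The log2 ratio was 1.95 with a spot-level SD of 0.07. Its scanner error, combined here from the scanner software's signal errors on both arrays, was 0.20. Bright probes such as those of Gadd45g and Mdm2 gave 0.20 as well. The log2 ratio placed Cdkn1a at rank 63 from the top of 15037 genes, with 99.6% of genes lower.

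**Figure D2:**
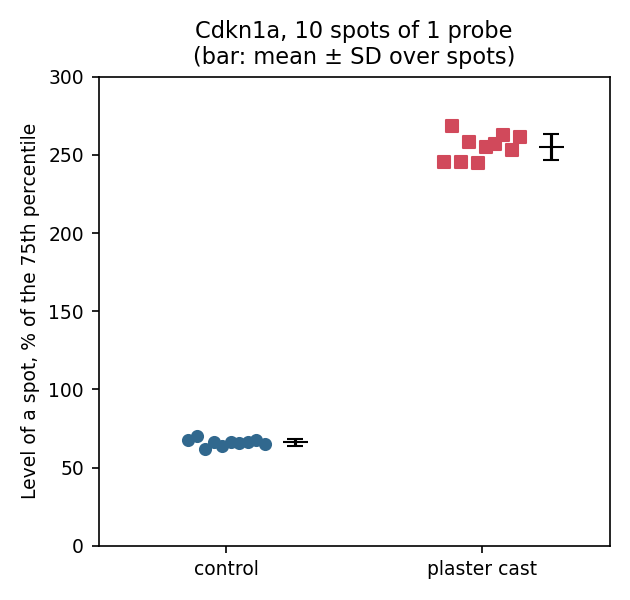
The 10 spots of the main Cdkn1a probe on each array, as a percentage of the array's 75th percentile, with the mean and SD over spots. Control spots lie between 62.1 and 70.4 and cast spots between 245 and 269, and these are repeat spots of 1 pooled RNA and not animals.

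A second Cdkn1a probe, which matches the variant that begins farther upstream, had a level of 3.31 on the control array, not well above background, and 4.28 on the cast array, well above it. Against the lowest signal called above background on the control array, this is at least 1.26-fold higher. The bound is small because the cast value lay close to the lowest level called above background on that array, 4.23. It takes no account of error, and the probe's scanner error, 0.46, was larger than its log2 ratio, 0.37. The main probe thus carries the measurement of this gene. On the mm9 assembly the main probe lies at chr17:29237377-29237436 and the variant probe at chr17:29227986-29228045, both on the plus strand.

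Cdkn1b, the other CIP/KIP inhibitor, had a level of 577 in control and 612 in cast with its brighter probe (chr6:134875424-134875483, plus strand, mm9). Its log2 ratio was 0.09, with a spot-level SD of 0.08 and a larger scanner error of 0.20. A second probe at chr6:134873606-134873665 read 12.7 and 10.2, a log2 ratio of -0.32 with a spot-level SD of 0.16. After scaling, the probes of Cdkn1b thus pointed opposite ways, and the direction for the gene turned negative, at -0.12, when its probes were averaged. With no scaling both probes read above 0, at 0.42 and 0.02. The second probe matches other annotated transcripts than the first, and its scanner error was 0.25. The log2 ratio of Cdkn1a exceeded that of Cdkn1b by 1.86, with a combined spot-level SD of 0.10. A single scaling factor for each array drops out of such a difference between genes. Over the 11 other ways of processing the arrays that were tried, it lay between 1.60 and 2.07. The filters on dim probes and on brightness could not move it either.

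The INK4 genes showed no difference upwards of the size seen for Cdkn1a. Cdkn2b stood on the lower side, with a level of 46.5 in control and 25.7 in cast, a log2 ratio of -0.85 (spot-level SD 0.10). Among all measured genes 96.7% had a higher ratio. Its second probe had a level of 8.80 in control and 3.80 in cast, not well above background there, which makes it at least 2.08-fold lower. Both Cdkn2b probes thus read lower on the cast array, 1 by measurement and 1 by a bound. The bound takes no account of error, and the scanner error of that second probe was 0.50. They lie on the minus strand of mm9 at chr4:88952276-88952335 and chr4:88952720-88952779.

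Cdkn2c, from the same inhibitor family, read 78.1 in control and 83.8 in cast, a log2 ratio of 0.10 with a spot-level SD of 0.10 (chr4:109333508-109333567, minus strand). Its scanner error was 0.21, larger than the ratio. The log2 ratios of Cdkn2c and Cdkn2b differed by 0.96, with a combined spot-level SD of 0.14, and by 0.71 to 0.96 over 10 other ways of processing. Of these, only quantile and loess scaling, background correction and the deposited series-wide table could move the difference. Cdkn2a, which encodes p16 and, from another reading frame, the Mdm2-binding protein p19ARF, was not well above background with either of its probes on either array. Their levels were 1.83 and 1.96 for the first probe (chr4:88920405-88920464) and 0.767 and 0.965 for the second (chr4:88920543-88920602), control before cast, both on the minus strand. Both probes match both annotated transcripts, so the products of this gene could not be told apart. No fold is given for Cdkn2a, and a difference in it was not detectable at this signal.

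Within the GADD45 family, small acidic proteins that bind stress kinases, the cell cycle kinase CDK1 and p21, the members differed from each other. Gadd45a had a level of 159 in control and 392 in cast, a log2 ratio of 1.30 with a spot-level SD of 0.09 and a scanner error of 0.20. It ranked 164 from the top, with 98.9% of genes lower. Gadd45b read 293 and 325, a log2 ratio of 0.15 with a spot-level SD of 0.08. This ratio was less than the probe's scanner error of 0.20. Gadd45g read 6935 and 5409, 1.28-fold lower on the cast array with a log2 ratio of -0.36 and a spot-level SD of 0.08. The family thus had 1 member clearly higher on the cast array, 1 nearly level and 1 slightly lower.

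The log2 ratio of Gadd45a exceeded that of Gadd45b by 1.15 and that of Gadd45g by 1.66, each with a combined spot-level SD of 0.12. Over 11 other ways of processing these differences lay between 1.08 and 1.17 and between 1.58 and 1.81. Only quantile and loess scaling, background correction and the deposited series-wide table could move them. The other scalings drop out of such a difference, and filters and probe averaging leave genes with 1 measured probe unchanged. The 3 probes shared no run of more than 7 bases of their 60. Probes were compared with each other and not with the transcripts of the other genes, so cross-reading between family members was not tested. Over all 87 pairs of probes of different members the longest shared run was 9 bases. On mm9 the probes lie at chr6:66985376-66985435 (Gadd45a, minus strand), chr10:80394367-80394426 (Gadd45b, plus strand) and chr13:51943733-51943792 (Gadd45g, plus strand).

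Trp53, which encodes p53 itself, had a level of 11.5 in control and 13.2 in cast, a log2 ratio of 0.20. Its spot-level SD was 0.16, the value for dim probes, and its scanner error was 0.25. Mdm2, the ubiquitin ligase that p53 induces, read 1345 and 1684, a log2 ratio of 0.33 with a spot-level SD of 0.08 and a scanner error of 0.20. Mdm2 was thus 1.25-fold higher and Trp53 1.15-fold higher on the cast array, the latter by less than its own scanner error. Of all measured genes 81.6% had a lower ratio than Mdm2 and 72.5% a lower one than Trp53. Their log2 ratios differed by 0.13, less than the combined spot-level SD of 0.18. The probes lie at chr11:69404204-69404263 (Trp53, plus strand) and chr10:117126010-117126069 (Mdm2, minus strand) on mm9.

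**Figure D3:**
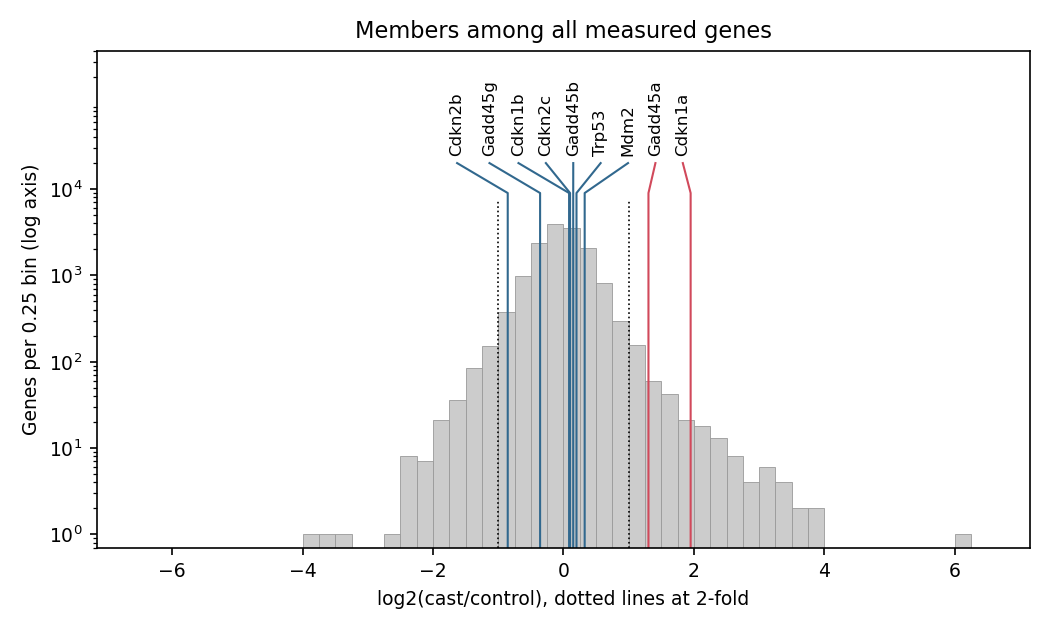
Number of measured genes (log axis) in bins of the log2 ratio of cast over control, for all 15037 genes, with a line at each of the 9 measured members (red past 2-fold, blue otherwise) and dotted lines at 2-fold. Cdkn1a (1.95) and Gadd45a (1.30) lie to the right of the upper dotted line, Cdkn2b (-0.85) lies inside the lower one, and the other members lie near the centre.

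The choice of scaling bears on the smaller values. Setting each array to its 75th percentile of signal, 385 for control and 486 for cast, lowers every log2 ratio by 0.34. The 7 spike-in RNAs used had a mean log2 ratio of -0.01 before this step and -0.35 after it. With no scaling, Cdkn1a was 4.88-fold and Gadd45a 3.12-fold higher on the cast array, Mdm2 stood at 0.66 and Gadd45g at -0.02. Over 11 alternatives the log2 ratio ranged from 1.74 to 2.30 for Cdkn1a, from 1.27 to 1.65 for Gadd45a, from 0.26 to 0.67 for Mdm2 and from -0.50 to -0.01 for Gadd45g. Cdkn2b ranged from -0.85 to -0.51 and Trp53 from 0.03 to 0.55 over the 10 alternatives that kept them. All 9 measured members kept their sign except Cdkn1b, as given above. The filters changed no value of a gene they kept, and averaging probes changed that of Cdkn1b alone.

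**Figure D4:**
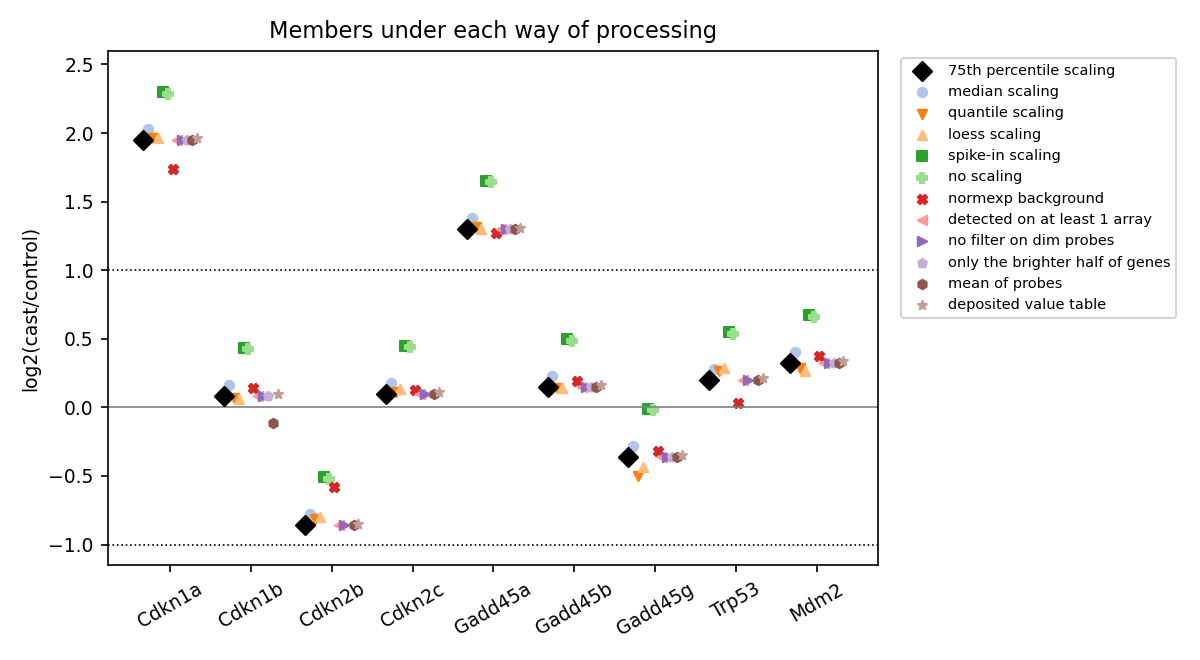
Log2 ratio of cast over control of the 9 measured members with 75th percentile scaling (black diamonds) and under each alternative (coloured symbols), with dotted lines at 2-fold. Cdkn1a (1.74 to 2.30) and Gadd45a (1.27 to 1.65) lie above 2-fold under each alternative run, Cdkn2b (-0.85 to -0.51) lies below 0, and Cdkn1b (-0.12 to 0.43) spans 0.

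The promoters of Cdkn1a and of the 3 Gadd45 genes are shown because these genes differ most among relatives. Each is the stretch from 250 bases before to 50 bases after an annotated start, from RefSeq on GRCm38.p6, read 5′ to 3′ on the gene's strand. Capitals mark p53 decamers (the consensus of 10 bases of which p53 binds a pair), TATAAA and TGATGNAA (the C/EBP-ATF composite site), on both strands. TGANTCA (the AP-1 site) and TGACG (the core of the cyclic AMP element) were marked too but match in none of these 4. The windows are chr17:29090729-29091028 (plus strand) for the upstream start of Cdkn1a, chr6:67037358-67037657 (minus strand) for Gadd45a, chr10:80929841-80930140 (plus strand) for Gadd45b and chr13:51846425-51846724 (plus strand) for Gadd45g.
Cdkn1a: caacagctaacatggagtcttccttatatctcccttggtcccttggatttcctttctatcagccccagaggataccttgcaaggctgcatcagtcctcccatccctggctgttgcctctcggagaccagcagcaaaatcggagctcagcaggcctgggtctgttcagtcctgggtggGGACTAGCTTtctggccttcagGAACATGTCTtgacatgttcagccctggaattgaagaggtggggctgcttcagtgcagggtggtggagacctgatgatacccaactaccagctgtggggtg
Gadd45a: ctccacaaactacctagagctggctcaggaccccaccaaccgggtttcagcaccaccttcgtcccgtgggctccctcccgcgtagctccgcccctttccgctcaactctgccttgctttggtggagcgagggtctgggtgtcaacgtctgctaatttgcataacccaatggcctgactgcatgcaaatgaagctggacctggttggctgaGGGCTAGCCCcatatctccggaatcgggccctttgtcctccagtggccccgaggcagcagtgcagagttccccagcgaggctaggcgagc
Gadd45b: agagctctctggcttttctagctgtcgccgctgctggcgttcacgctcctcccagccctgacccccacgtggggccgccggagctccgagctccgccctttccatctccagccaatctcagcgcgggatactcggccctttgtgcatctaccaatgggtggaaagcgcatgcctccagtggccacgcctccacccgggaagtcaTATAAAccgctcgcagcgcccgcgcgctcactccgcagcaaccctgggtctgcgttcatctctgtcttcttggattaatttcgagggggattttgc
Gadd45g: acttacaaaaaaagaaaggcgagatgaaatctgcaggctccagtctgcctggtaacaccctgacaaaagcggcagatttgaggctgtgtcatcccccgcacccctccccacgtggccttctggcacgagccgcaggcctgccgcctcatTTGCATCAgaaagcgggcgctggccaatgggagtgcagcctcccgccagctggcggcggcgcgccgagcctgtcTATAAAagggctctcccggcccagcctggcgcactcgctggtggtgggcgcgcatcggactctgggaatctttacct

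The Cdkn1a window holds p53 decamers that begin 73 and 51 bases before the upstream start, GGACTAGCTT and GAACATGTCT. Exact matches alone were marked, so a decamer with a mismatch stays in small letters. Which decamers form a pair was not tested. The window of the second Cdkn1a start, 2790 bases downstream, is not printed and has no match to the marked motifs. The Gadd45a window holds GGGCTAGCCC, beginning 40 bases before the start. The windows of Gadd45b and Gadd45g hold no p53 decamer but a TATAAA, beginning 46 and 27 bases before the start, and Gadd45g also holds the reverse complement of TGATGNAA beginning 101 bases before it. The members thus differ in the letters near their starts, which is a description of sequence and not of binding.

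Over the 13 windows of the 10 genes, 4 held a p53 decamer, those of Cdkn1a (upstream start), Gadd45a, Mdm2 and Trp53, where 8.36% of 32851 promoter windows of the same length did. TATAAA was in 3 of 13, beside 13.6% of all, with the Trp53 match reversed and 248 bases before the start. TGATGNAA was in 1 of 13, beside 3.97%, and TGANTCA in 0 of 13, beside 7.81%. The full cyclic AMP element TGACGTCA, which contains that core on both strands, was in the Cdkn2b window alone, beside 1.79%. TGACG itself was in 3 of 13, beside 20.8%, and the FoxO site TGTTTAC was in the Mdm2 window alone, beside 3.65%. Of commoner motifs, GGGCGG (the GC box) was in 9 of 13 windows beside 35.7% of all, CCAAT in 8 beside 37.4%, and CANNTG (the E-box) in 9 beside 72.3%. TGTTCT (a glucocorticoid receptor core) was in 1 window, of Cdkn2c, beside 19.0%, and GTCTAGAC (a Smad element) in 0 beside 0.213%. Of the members with a p53 decamer, Cdkn1a and Gadd45a were past 2-fold and Mdm2 and Trp53 were not. For Cdkn1a the decamers lie at the upstream start, and the probe of that variant read 3.31 and 4.28, near background. The Cdkn1a probe past 2-fold matches both variants, so its ratio cannot be assigned to either start.

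Further genes known as p53 targets were mixed. Of 36 on the list 28 were measured, with 5 at least 2-fold higher, 0 at least 2-fold lower, 17 above 0 and 11 below, and a median of 0.11. Of all measured genes 2.23% were at least 2-fold higher and 2.09% lower, and these shares stand beside the counts of every list below. The lists share genes, so their counts are not separate. Btg2 is also on the quiescence and immediate early lists, and Ddit4 on that of GADD45 partners. Bbc3, which encodes the cell death protein PUMA, read 44.7 and 165, 3.70-fold higher on the cast array. The mTOR inhibitor Ddit4 was at 1.46, the membrane protein gene Perp at 1.15, the antiproliferative Btg2 at 1.10 and the stress gene Trp53inp1 at 1.01. The other Trp53inp1 probe stood at 0.83, and with probes averaged 4 of the list were at least 2-fold higher. Ccng1, the cyclin G1 gene and a standard p53 target, read 3937 and 2104, 1.87-fold lower, and Sesn1 stood at -0.07. Cdkn1a and Gadd45a thus had ratios like those of some p53 targets and unlike those of others. Under other scalings and background correction the count of the list past 2-fold ranged from 3 to 6 upwards and from 0 to 1 downwards. Eda2r, a death receptor gene named here after its values were seen, was well above background in cast alone with both its probes. They read 4.49 and 28.5, at least 6.35-fold higher, and 2.80 and 17.5, control before cast. Rrm2b, also on the list, was well above background in control alone, at 7.37 and 4.35 in cast, at least 1.69-fold lower.

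Of 24 regulators and relatives of p53, 21 were measured and by the brightest probe none was past 2-fold in either direction, with a median of -0.08 (0.26 with no scaling). Over the scalings and background correction 0 to 1 were past 2-fold upwards. The probes of Trp63, the gene of the p53 relative p63, disagreed, as the brighter read 776 and 678 (log2 ratio -0.20) and the dimmer 20.8 and 74.9 (1.85). The checkpoint kinase gene Chek2, above background in control alone, was at least 2.03-fold lower. Mdm4, the partner of Mdm2 in restraining p53, read 39.8 and 77.5, 1.94-fold higher, and its other probe gave 0.73. The DNA damage kinase genes Atr and Prkdc stood at 0.58 and 0.35, and the deacetylase gene Sirt1 at 0.32. Mdm4 thus had a ratio above that of Mdm2, 0.96 beside 0.33.

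The cyclins and kinases that the inhibitors act on lay mostly on the lower side after scaling. The list of 12 holds cyclins, their kinases, the phosphatase gene Cdc25a and the replication clamp gene Pcna. Of these 9 were measured, with 1 at least 2-fold lower, 0 higher, 8 below 0 and a median of -0.22, which was the value of Cdc25a, while Pcna, at 0.09, was the gene above 0. Ccnd1, the cyclin D1 gene, read 80.4 and 38.2, 2.11-fold lower on the cast array. Ccnd2 read 86.3 and 54.3, 1.59-fold lower, while Ccnd3 was 1.15-fold lower and Cdk4 stood at -0.07. Cdk2 stood at -0.23, the cyclin E1 gene Ccne1 at -0.31, and neither array had Cdk6 well above background. With no scaling the median turned to 0.12 with 7 of 9 above 0, and Ccnd1 and Ccnd2 were the members that stayed lower, at -0.74 and -0.33. The count of this list past 2-fold downwards, which is Ccnd1, ranged from 0 to 1 over the scalings and background correction.

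Of 13 other inhibitors and quiescence genes all were measured, 2 at least 2-fold higher (2 to 4 over the scalings and background correction) and 12 above 0, with a median of 0.38. Rb1, which encodes the retinoblastoma protein that the CDK4 and CDK6 kinases inactivate, read 152 and 547 with its 1 measured probe, 3.60-fold higher on the cast array. Btg1 stood at 0.77 and the transcription factor gene Klf6 at 0.69. The third CIP/KIP inhibitor gene, Cdkn1c, was 1.53-fold higher and the fourth INK4 gene, Cdkn2d, stood at -0.09. Cdkn1a was thus the CIP/KIP gene with the largest ratio of the 3, and Cdkn2b the INK4 gene with the lowest of the 3 measured.

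Among partners of GADD45 proteins and other growth arrest and DNA damage genes, 14 of 15 were measured, with 2 at least 2-fold higher, 1 lower and a median of -0.23 (0.10 with no scaling). Map3k4, the kinase that GADD45 proteins bind and activate, was 1.19-fold lower at -0.25, a direction that turned to 0.09 with no scaling. Map2k6, a p38 kinase activator further down that route, read 653 and 205, 3.18-fold lower. Mapk14, the p38 kinase gene itself, stood at -0.53, and its other probe at -1.20. Ppp1r15a, known as Gadd34, was 2.19-fold higher. With no scaling Map2k6 and Mapk14 still lay below 0, at -1.33 and -0.19, so the higher Gadd45a stood beside lower values for both.

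Of 15 genes placed on the muscle atrophy route to Gadd45a and Cdkn1a, 14 were measured and none was past 2-fold, with a median of 0.12. Left unscaled, or scaled to the spike-ins, 2 were past 2-fold upwards, Hdac4 and Atf3 (1.13 and 1.16 with no scaling), and the median was 0.46 with no scaling. ATF4 and HDAC4 are known to act upstream of Gadd45a in wasting muscle, and Cdkn1a is known to lower Smox, the spermine oxidase gene. Hdac4 read 159 and 275, 1.73-fold higher, while Atf4 read 9245 and 9028, with a log2 ratio of -0.03. Smox read 8352 and 5160, 1.62-fold lower, with its other probe at -0.83. The repressor gene Dach2 was 1.91-fold lower and the stress factor gene Atf3 1.77-fold higher. Atf4 transcript does not report ATF4 protein, which is controlled mainly at translation.

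Of 18 other regulators of these inhibitors, most of them from the TGF-beta and MYC routes, Polycomb and the ubiquitin ligase that degrades p27, 14 were measured and 0 were past 2-fold, with a median of 0.19. Myc, a repressor of Cdkn1a and Cdkn2b, stood at 0.58, the Polycomb methyltransferase gene Ezh2 at 0.57, the receptor gene Tgfbr1 at 0.54 and the ubiquitin ligase scaffold gene Cul1 at 0.49. Of 14 genes tied to cell senescence, most of them for secreted factors, 8 were measured, 3 at least 2-fold higher (2 to 4 over the scalings and background correction), with 4 above 0 and 4 below. Those below included the nuclear lamina gene Lmnb1 (-0.71) and the lysosomal enzyme gene Glb1 (-0.14), which are no secreted factors. The chemokine genes Ccl7 and Ccl2 stood at 2.63 and 2.34, the protease gene Mmp3 at 2.16 and Igfbp3 at 0.97, while Cdkn2a, the usual senescence marker, was not well above background. Of 18 immediate early genes 17 were measured, 4 at least 2-fold higher (2 to 7 over the scalings and background correction) and 16 above 0, among them Fos (2.93), Fosb (1.35), Junb (1.12) and Btg2.

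**Figure D5:**
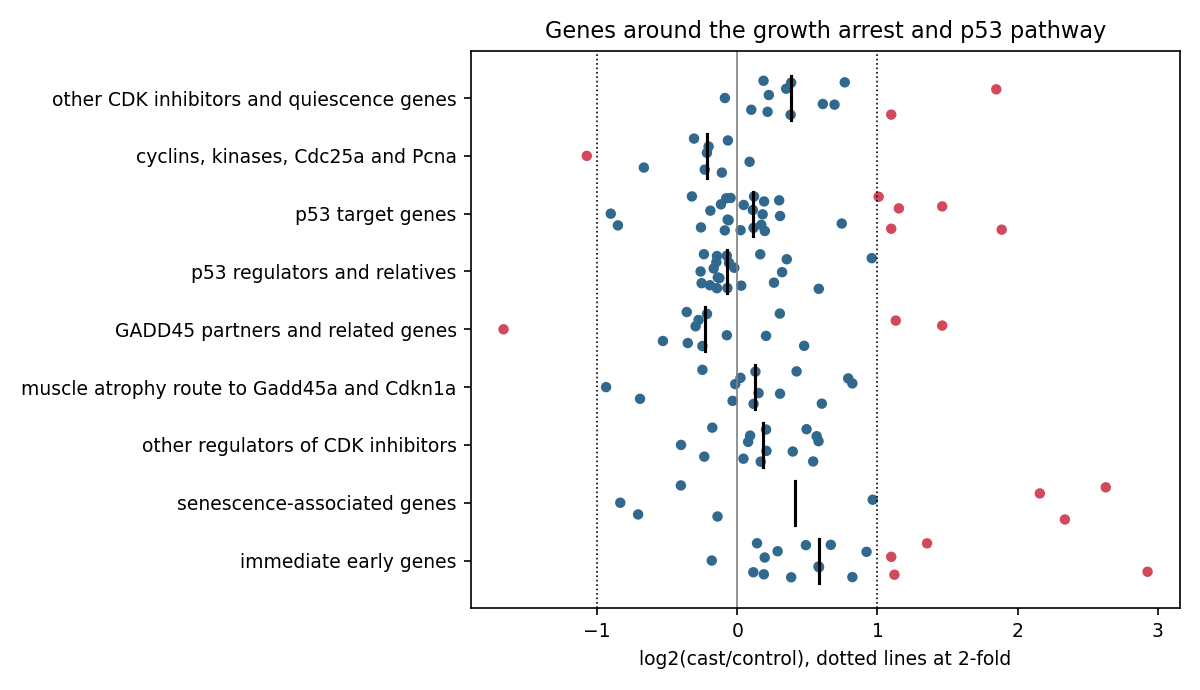
Log2 ratio of cast over control of the measured genes of each list (1 point a gene, red at or past 2-fold and blue otherwise), with the list's median as a black bar and dotted lines at 2-fold. Medians run from -0.23 for GADD45 partners to 0.58 for immediate early genes, and Ccnd1 (-1.07) and Map2k6 (-1.67) are the points past the lower dotted line.

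Since whole muscle was used, fewer cells of a type and less RNA per cell cannot be told apart. The tissue label was borne out by its markers, as 6 of 6 muscle fibre genes were well above background on both arrays, with a summed level of 258518 in control and 206179 in cast and a median log2 ratio of -0.26 (0.07 with no scaling). Beside the higher Cdkn1a and Gadd45a, the 4 neutrophil markers summed to 62.7 and 249, mostly through S100a8 and S100a9 (log2 ratios 2.21 and 2.23), while Ly6g stood at -0.41. The 4 measured of 6 satellite cell markers summed to 389 and 864 through Cdh15 (316 and 807), while Pax7 stood at a log2 ratio of 0.08, Chodl at 0.07 and Vcam1 at -0.72. Beside the lower Cdkn2b and Ccnd1, the 6 fibroblast markers summed to 15859 and 11122 and the 6 endothelial markers to 1219 and 918. The fibre and adipocyte sums were lower in cast as well. The median log2 ratio was -0.74 for fibroblast markers and -0.25 for endothelial markers, and -0.40 and 0.09 with no scaling. Most of the fibroblast sum was Dcn (log2 ratio -0.29), while Col1a1 stood at -1.76 and Pdgfra at -0.07. The macrophage list, with 5 of 7 measured, summed to 1988 and 1615 through Itgam (1379 and 953), but 3 of the 5 were above 0 and the median log2 ratio was 0.01. Cd68 and Cd163 were not well above background. Leukocyte markers (3 of 6) summed to 199.5 and 209, Schwann cell markers (4 of 5) to 203 and 211, and adipocyte markers (4 of 5) to 4090 and 3609. Of 8 markers of proliferating cells 4 were measured, with sums of 52.0 and 90.2, mostly through Rrm2 (26.2 and 59.8). Mki67 read 8.83 and 10.7, Birc5 9.88 and 13.2 and Ccna2 7.07 and 6.55, while Top2a, Ccnb1 and Bub1 were not well above background. The part of these cells in the results was not tested.

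Of all probes on the arrays, 60.6% in control and 56.7% in cast were well above background. Among the 14 member probes 10 were well above it on both arrays, 1 on the control array alone, 1 on the cast array alone and 2 on neither. No member spot was saturated or carried a non-uniformity flag. Repeat spots of replicated probes gave a median SD of the log2 ratio of 0.16 in the dimmest of 4 brightness classes and 0.08 in the brightest, so values for Trp53, the second probes of Cdkn1a, Cdkn1b and Cdkn2b and both Cdkn2a probes are less precise than the rest.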

How the data were processed

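The deposited values used are processed spot intensities of the one-colour arrays, for which the submitters' processing notes name Agilent Feature Extraction 9.5. Background subtraction and detrending were done by the authors within each array, per the file headers, with no step between arrays. A deposited series-wide table of linear intensity was found by comparison to be that signal times 100 over the 75th percentile of all 44397 spots of the array, with 54.9% of values rounded to whole numbers and medians of 9.00 (control) and 8.70 (cast). It served as an alternative.

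Intensities were log2-transformed and spots of a probe averaged, leaving out control spots and spots with a non-uniformity flag (2 control, 9 cast). Each array was set to its 75th percentile over non-control probes. A gene was measured when 1 probe was well above background on both arrays, on more than 0.5 of its spots, and took the value of its brightest such probe. For a probe dim on 1 array, the bright value was set against the higher of the lowest level called above background there (3.40 control, 4.23 cast) and the probe's own level. The folds given as "at least" come from this step and take no account of error. Symbols came through accessions in a RefSeq table (GRCm38, 26055 of 39429 probes), used for names alone, otherwise from the array. Exon and UTR annotation of the probes was not used here. The spot-level SD came from a probe's own repeat spots or, with too few, from replicated probes of like brightness (4 classes).

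With 1 array per group no test was made. Counts used a 2-fold threshold. Python 3.11.15, numpy 2.4.6, pandas 2.3.3, R 4.3.3 and limma 3.58.1 (normexp, offset 50) were used. The scaling was tested on simulated data. The members and lists were chosen with earlier results of these data known. Named genes were all members, up to 4 measured genes per list, by size of the log2 ratio, and a fixed set of partners (Atf4, Hdac4, Smox, Mdm4, Ccnd1, Ccnd2, Ccnd3, Cdk4, Cdk6, Cdk2, Ccng1, Sesn1). Map3k4, Trp53inp1, Eda2r, Rrm2b, Trp63, Chek2, Pcna, Cdc25a, Lmnb1, Glb1, Cdkn1c and Cdkn2d were named after their values were seen. Alternatives were other scalings, background correction, filters, probe rules and the 1.5-fold threshold.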

Additional observations from a re-analysis of the deposited data

How the results depend on the processing

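The members at least 2-fold higher numbered 2 under every alternative run, and those at least 2-fold lower 0, except for 1 (Cdkn2b) at a 1.5-fold threshold. Counts over all genes moved more. Of the 336 higher and 315 lower genes, the counts were 852 and 117 with spike-in scaling, 823 and 119 with no scaling, 184 and 148 with normexp background correction, 750 and 868 with no filter on dim probes, 137 and 123 in the brighter 50% of genes, 1059 and 1233 at a 1.5-fold threshold, and 398 and 254 with median scaling. With genes well above background on at least 1 array, 531 were lower. Over all genes the median log2 ratio was 0.32 with spike-ins and 0.31 unscaled, against -0.03. The cause was not tested, beyond what the scaling factor and the number of genes fix. No paired analysis was possible because each group is 1 pooled array, and no replicate could be left out. The precision of 1 array per group is limited by that number, and dim probes (Cdkn2a, the second probes of Cdkn1a and Cdkn2b) give bounds or nothing.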
